A study of Caenorhabditis elegans with 2 samples.

Results

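The genes described here were 10 protein-coding genes of Caenorhabditis elegans that act in the splicing of pre-mRNA, out of 19973 coding genes on the nuclear chromosomes. They comprised 4 genes for serine- and arginine-rich (SR) proteins, rsp-1, rsp-2, rsp-3 and rsp-6, 3 genes for Sm proteins, snr-2, snr-3 and snr-4, and 3 genes for RNA helicases, mog-1, mog-4 and mog-5. They were chosen by name, with the peaks at some of them already known, so the values below describe these genes and carry no test. Peak lists came from chromatin immunoprecipitation with sequencing (ChIP-seq) of whole young adult worms of strain RW12293, in which the gene C17E4.6 carries TY1, EGFP and 3xFLAG tags (st12293, on chromosome I). Worms were grown for 62 hours from first-stage larvae that had been starved after bleaching. There was 1 group of 2 biological replicates, both made from the tagged strain and precipitated with an antibody against GFP, and no untagged or control group was analysed here. Because whole animals were used, a peak cannot be assigned to a tissue.

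C17E4.6 is a relative of YL1 (VPS72), a protein that in other species is part of the machinery exchanging histone H2A for the variant H2A.Z. The spliceosome removes introns from pre-mRNA. Most of its small nuclear ribonucleoproteins hold a small nuclear RNA (snRNA) in a ring of Sm proteins. SR proteins bind exons and help to define splice sites, and helicases of the DEAH-box family drive rearrangements between the steps of splicing. In C. elegans the mog genes are also known from the germline of hermaphrodites, where their loss keeps the animal from switching from sperm to oocytes. Many worm mRNAs receive a spliced leader by trans-splicing at an acceptor site near the start of the gene, so that transcription of such a gene may begin upstream of its annotated 5′ end.

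A gene was called marked when a peak summit fell in its promoter window, which spans 500 bp before and 200 bp after the annotated 5′ end. In the combined thresholded list of 1017 peaks, which the authors made from both replicates, 5 of the 10 genes were marked, by 4 peaks: rsp-1 and rsp-2, which share a peak, rsp-6, snr-4 and mog-4. Of all coding genes 558 were marked, or 2.79%. The choice of the 10 genes used these peaks, so nothing is read from their share. The same 5 were marked in the conservative list (2.66% of coding genes) and in the thresholded list of replicate 1 alone (1.72%), and 4 of them, without rsp-6, in that of replicate 2 (1.34%). Of the other 5 genes, rsp-3, snr-3 and snr-2 had only summits below the threshold in the window of the combined ranked list, and mog-1 and mog-5 had none there. In that list, which holds 65464 peaks with no threshold, 8 of the 10 genes and 42.9% of coding genes had a summit in the window. In the other ranked lists the window held a summit for 8 genes (conservative, 41.8% of coding genes), 9 genes (replicate 1, 33.2%) and 7 genes (replicate 2, 34.1%). Other rules gave 4 genes with the 508 peaks of highest signal in the combined list (1.68% of coding genes) and 5 with ranked peaks at a score of 540 or more (4.32%). They gave 2 with a window of 250 bp upstream and 100 bp downstream (1.68%) and 5 with one of 1000 bp and 500 bp (3.74%). They gave 4 with the nearest coding 5′ end alone (2.2%) and 5 with any overlap of peak and window (3.14%).

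**Figure D1:**
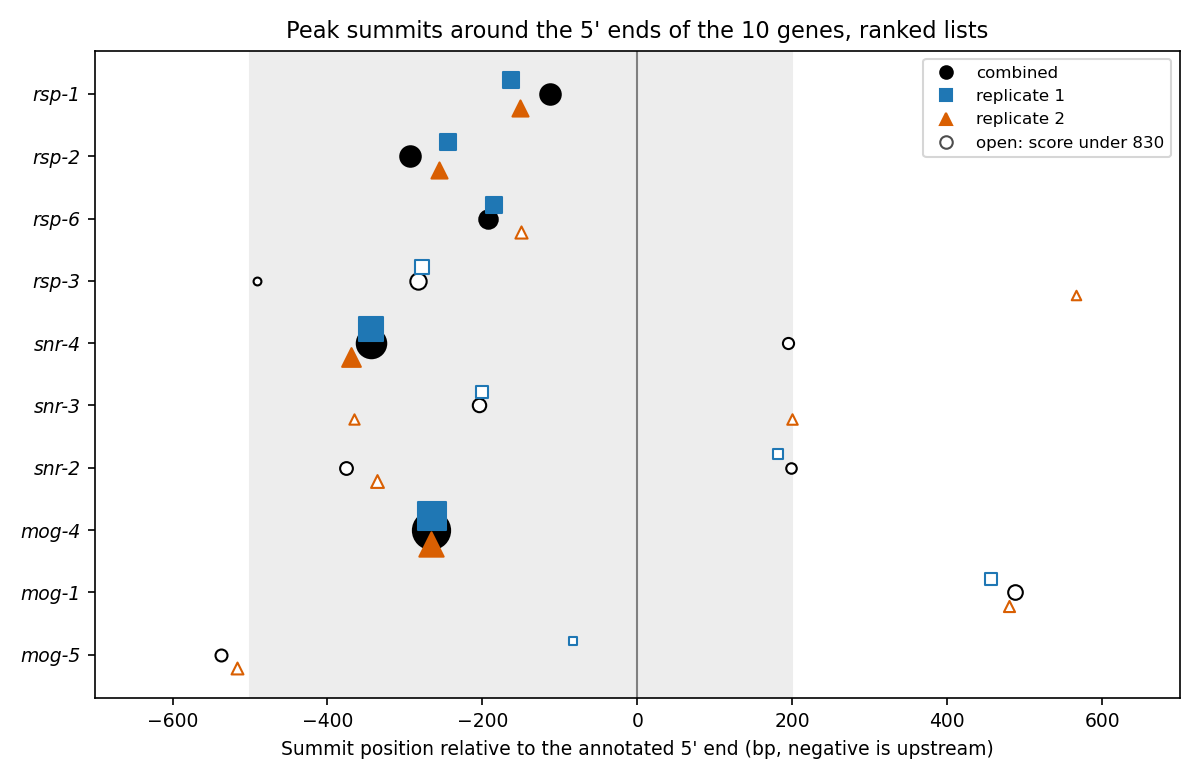
Summits of the ranked lists around the 5′ ends of the 10 genes, with the position in bp on the x axis and a row per gene. Circles, squares and triangles are the combined list, replicate 1 and replicate 2, their area grows with the signal, filled symbols have a score of 830 or more, and the grey band is the promoter window. Drawn are the summits in the window or, where a list had none there, the nearest one. Among those drawn, the filled symbols lie upstream of the 5′ ends, between 113 and 370 bp from them. The thresholded peak 604 bp downstream of the rsp-2 5′ end is not drawn.

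Each peak carries a signal and a score set by the authors. The scale of the signal is not stated, so levels are compared within a list and replicates are set side by side. The score follows the irreproducible discovery rate (IDR), with 830 for an IDR of 0.01 and a cap at 1000. In the combined list all marked genes had a score of 1000, and the highest score of the other genes was 428, at rsp-3. The median signal was 79.9 over the combined thresholded list. Over the coding genes with a summit in the combined ranked list, the median of the strongest signal in the window was 26.1.

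The SR protein genes rsp-1 and rsp-2 stood head-to-head on chromosome II and shared a single peak between them. In the annotation rsp-1 (WBGene00004698) runs from 11453362 to 11455864 on the plus strand and rsp-2 (WBGene00004699) from 11451441 to 11452955 on the minus strand, so that their 5′ ends lie 407 bp apart. The peak covered 11453107 to 11453390 with a summit at 11453249, 113 bp upstream of rsp-1 and 294 bp upstream of rsp-2. Its signal was 96.1 in the combined list (rank 322 of 1017), 49.5 in replicate 1 and 54.9 in replicate 2. The peak was thus above the median of the combined list. Within the thresholded list of each replicate it stood at rank 424 of 570 in replicate 1 and 170 of 414 in replicate 2. Its score in replicate 1 was 831, the closest of the marked genes to the threshold, against 1000 in replicate 2. The summits of both replicates lay nearer to the middle of the gap, 163 and 151 bp from rsp-1 and 244 and 256 bp from rsp-2. The sequence around the summit (chrII:11453189-11453309, plus strand, from RefSeq, build ce11 or WBcel235, as for all sequences here) is shown because it lies between the 5′ ends of both genes, with matches to the motifs named below in capitals.
rsp-1 and rsp-2: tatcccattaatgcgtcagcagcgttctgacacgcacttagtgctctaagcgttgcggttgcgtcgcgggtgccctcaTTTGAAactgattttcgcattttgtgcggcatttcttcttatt

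rsp-1 has 6 annotated transcripts with 4 different 5′ ends, and the distance of the peak depends on which is used. Counted from the transcripts that start 618 bp downstream of the gene's 5′ end, the summit stood at -731 bp and outside the window. A further peak of the combined list lay inside rsp-2, in an intron 604 bp downstream of its 5′ end, from 11452209 to 11452492. It had a combined signal of 63.1 (rank 828) and signals of 32.4 and 30.9 in replicates 1 and 2, where its scores of 466 and 514 were below the threshold. The pair therefore had a peak in the shared promoter, called in each replicate, and a weaker peak in the body of rsp-2 that passed the threshold in the combined and conservative lists alone.

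rsp-6 (WBGene00004703), a homologue of the mammalian SR protein SRSF3, had a peak of its own on chromosome IV. The gene runs from 7789847 to 7791229 on the minus strand, and the peak covered 7791280 to 7791563 with a summit 193 bp upstream of the 5′ end. The combined signal was 75.8 (rank 580 of 1017), with 47.2 in replicate 1 and 26.5 in replicate 2. The score was 1000 in replicate 1 and 243 in replicate 2, so replicate 2 did not pass the threshold at this site. Of the 4 peaks at the marked genes this was the weakest in all 3 lists. The upstream gene on the same strand, C33H5.13, ends 474 bp from rsp-6, so the peak lies in the gap between them. A second peak of the combined list followed the other end of the gene, 104 bp beyond the 3′ end of rsp-6 and 130 bp upstream of the 5′ end of imp-3, and had a signal of 82.1 in the combined list, 46.5 in replicate 1 and 28.2 in replicate 2. The sequence around the promoter summit (chrIV:7791362-7791482, plus strand) is shown because it holds the only match of these sites to CTGCGTC, a motif of the type bound by EOR-1, read on the minus strand (first capitals), and a match to TTCGAA (second capitals).
rsp-6: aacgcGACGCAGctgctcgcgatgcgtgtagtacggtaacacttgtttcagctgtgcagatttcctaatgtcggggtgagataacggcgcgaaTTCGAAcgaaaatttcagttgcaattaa

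rsp-3 (WBGene00004700), the homologue of the mammalian factor SRSF1, had the strongest summit among the genes that were not marked. It lies on chromosome III from 12686182 to 12687922 on the minus strand, head-to-head with spin-4, a homologue of the fly transporter gene spinster, with 5′ ends 396 bp apart. The summit lay 283 bp upstream of rsp-3 and 113 bp upstream of spin-4. Its signal was 57.1 in the combined ranked list, and 93 of the 1017 thresholded peaks (9.14%) had a lower signal, but its score was 428. Replicate 1 gave it a signal of 34.5 with a score of 63, and in replicate 2 the nearest summit of the ranked list was 566 bp downstream of the 5′ end, with a signal of 11.96. The site was thus below the median of the thresholded list, was below the threshold in replicate 1, and had no summit in the window in replicate 2. In the combined ranked list 1337 peaks had a signal at least as high, and 984 of them had a score of 830 or more. The sequence (chrIII:12688145-12688265, plus strand) is given to set the strongest unmarked site beside the marked ones, with matches to TTCGAA and TTTGAA in capitals.
rsp-3: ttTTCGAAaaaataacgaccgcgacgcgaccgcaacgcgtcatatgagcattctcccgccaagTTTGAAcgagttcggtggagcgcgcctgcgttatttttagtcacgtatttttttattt

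Among the Sm genes only snr-4 was marked, and its peak lay at a snRNA gene. snr-4 (WBGene00004917), which encodes SmD2, runs from 11978508 to 11979723 on the minus strand of chromosome V. The peak covered 11979999 to 11980133, with a summit at 11980067, 344 bp upstream of the 5′ end. Its signal was 211 in the combined list (rank 32 of 1017), 136 in replicate 1 and 78.3 in replicate 2, with a score of 1000 in each. Replicate 1 was the higher one, and both passed the threshold. The summit was 51 bp upstream of the 5′ end of the snRNA gene C52E4.8 (WBGene00014291, 144 bp, plus strand) and inside the noncoding gene C52E4.14, 108 bp from its 5′ end. The next coding gene upstream, rpt-1, which encodes a subunit of the proteasome, lies on the same strand with its 3′ end 810 bp from snr-4, so the summit was in the window of no coding gene but snr-4. A second, weak summit of the combined ranked list lay 194 bp downstream of the snr-4 5′ end, with signal 20.7 and score 70. Of the 1017 combined peaks, 23 (2.26%) had the 5′ end of a snRNA gene within 100 bp of the summit, and 24 of 129 annotated snRNA genes had such a summit. Which of the genes at this site the signal belongs to cannot be told apart from peak positions. In the conservative list, a further peak lay 547 bp upstream of snr-4, just outside the window, with a score of 1000 at a signal of 4.902. It had a score of 64 in the combined ranked list, and 23 peaks of the conservative list had a signal under 10. The whole peak at snr-4 (chrV:11979999-11980133, plus strand) follows, with the TATA match in capitals, which reads TATAAA on the minus strand, toward snr-4.
snr-4: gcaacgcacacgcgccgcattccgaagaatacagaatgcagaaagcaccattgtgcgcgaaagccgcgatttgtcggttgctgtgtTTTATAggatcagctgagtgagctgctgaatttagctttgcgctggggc

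The genes for SmD1 and SmB, snr-3 and snr-2, had weak summits in their windows. snr-3 (WBGene00004916, chromosome II, 6488830 to 6489761, minus strand) stands head-to-head with another SR protein gene, rsp-5, with 5′ ends 404 bp apart. A summit between them, 205 bp upstream of snr-3 and 199 bp upstream of rsp-5, had a combined signal of 34.8 with a score of 234. Replicate 1 had a summit 4 bp away from it with signal 26.3 and score 189, and the summits of replicate 2 in the window were elsewhere, 366 bp upstream (signal 16.1) and 200 bp downstream (16.97) of the 5′ end. The nearest thresholded peak lay on the far side of rsp-5, 50 bp past its 3′ end, with signals of 92.0 in the combined list, 45.9 in replicate 1 and 45.3 in replicate 2. Neither replicate alone passed the threshold there, with scores of 660 and 648. The sequence at the summit between snr-3 and rsp-5 (chrII:6489906-6490026, plus strand) is shown because, like that of rsp-1 and rsp-2, it lies between the promoters of divergent splicing genes, with a match to TTCGAA in capitals.
snr-3 and rsp-5: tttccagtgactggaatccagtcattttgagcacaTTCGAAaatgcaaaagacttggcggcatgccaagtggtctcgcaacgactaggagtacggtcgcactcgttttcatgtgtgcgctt

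snr-2 (WBGene00004915, chromosome I, 13339397 to 13340224, plus strand) had a summit 376 bp upstream in the combined ranked list, 90 bp from the 5′ end of the divergent gene W08E3.4. Its signal was 30.5 and its score 28. A weaker summit of the same list lay 198 bp downstream, with signal 17.2 and score 139. Replicate 2 had a summit 336 bp upstream with signal 30.9 and score 34, and replicate 1 had none upstream, only one 181 bp downstream with a signal of 16.1. The replicates thus placed their summits on opposite sides of the 5′ end, near those of the combined list, and the nearest thresholded peak of the combined list was 8296 bp away.

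Among the helicase genes mog-4 was marked, by the strongest peak at any of the 10 genes, and mog-1 and mog-5, which encode the homologues of the yeast helicases PRP16 and PRP22, were not. These proteins are known to act at the second step of splicing and at the release of the mRNA. At mog-1 (WBGene00003389, chromosome III, 9952060 to 9956215, minus strand) the window held no summit in any of the 4 ranked lists, and the nearest summit lay inside the gene, 487 bp downstream of the 5′ end. Its signal was 43.6 in the combined ranked list (score 128), 22.8 in replicate 1 and 20.5 in replicate 2. At mog-5 (WBGene00003393, chromosome II, 5399538 to 5405810, plus strand) the only summit in the window was in replicate 1, 83 bp upstream, with signal 8.44 and score 19. The nearest summit of the combined ranked list was 537 bp upstream, with a signal of 25.6. The combined thresholded peak nearest to mog-5 was 21867 bp away and that nearest to mog-1 173912 bp away.

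The peak of mog-4 (WBGene00003392) lay upstream of the gene, which encodes the worm homologue of the yeast DEAH-box helicase PRP2, known for driving the step that activates the spliceosome before the first cut. The gene runs from 14552504 to 14561599 on the minus strand of chromosome II. The peak covered 14561779 to 14561963, with a summit at 14561866, 267 bp upstream of the 5′ end. Its signal was 343 in the combined list (rank 4 of 1017), 201 in replicate 1 (rank 4 of 570) and 140 in replicate 2 (rank 5 of 414). Those ranks are from the thresholded lists. In the ranked lists the peak stood at rank 6 of 65464 (combined), 5 of 43313 (replicate 1) and 22 of 45592 (replicate 2). All 3 signals were among the highest of their lists. The summits of the replicates fell 265 and 267 bp upstream, within 2 bp of each other. No other coding gene began nearby: the gene on the far side was the pseudogene C01G12.12, read in the same direction as mog-4, and the next coding gene, madf-5, began 12016 bp from the 5′ end of mog-4. Of 2 annotated 5′ ends of mog-4, the other is 8319 bp downstream. The whole peak (chrII:14561779-14561963, plus strand) is shown as the strongest site, and it holds none of the motifs searched.
mog-4: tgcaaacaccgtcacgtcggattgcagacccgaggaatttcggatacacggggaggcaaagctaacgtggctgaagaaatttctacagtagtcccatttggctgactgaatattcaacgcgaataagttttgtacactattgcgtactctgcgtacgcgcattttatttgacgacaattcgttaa

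**Figure D2:**
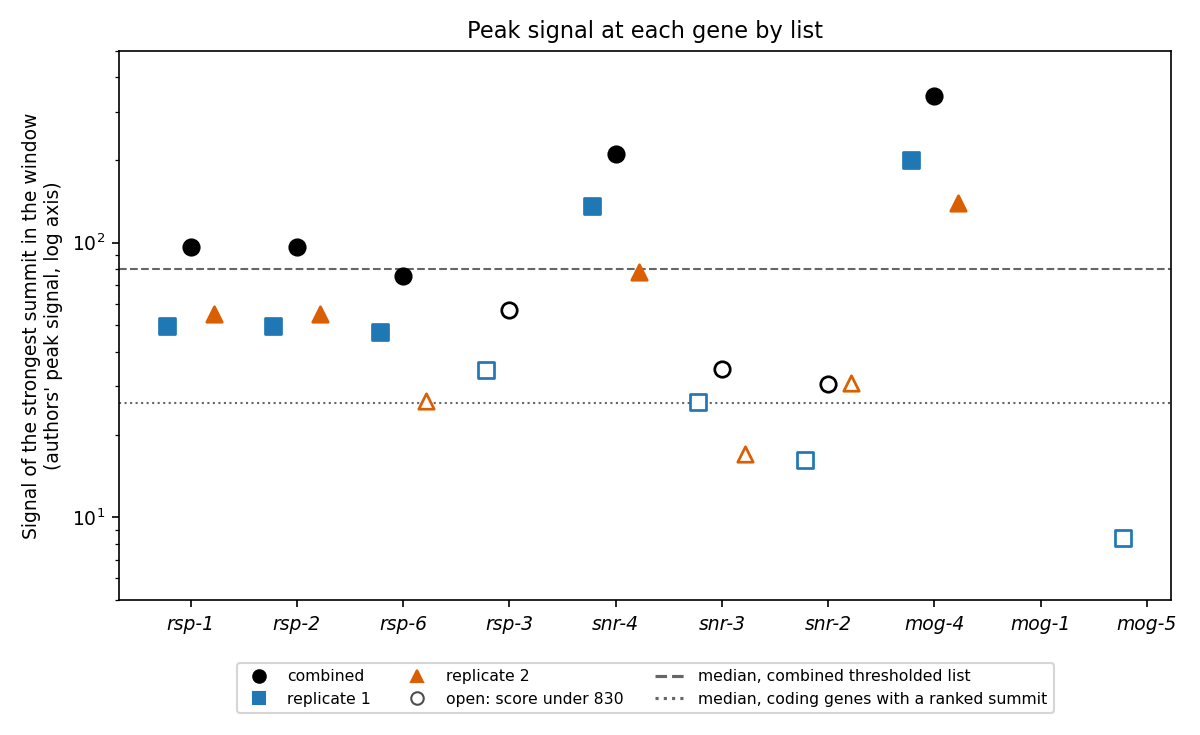
Signal of the strongest summit in the promoter window of each gene, on a log axis, in the combined ranked list (circles), replicate 1 (squares) and replicate 2 (triangles), filled for a score of 830 or more. The dashed line is the median of the combined thresholded list (79.9) and the dotted line that of coding genes with a ranked summit (26.1), and in the combined list mog-4, snr-4, rsp-1 and rsp-2 stand above the dashed line while the marked gene rsp-6 (75.8) lies between the lines with rsp-3, snr-3 and snr-2.

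By combined signal the order was mog-4 (343), snr-4 (211), rsp-1 and rsp-2 (96.1), rsp-6 (75.8), rsp-3 (57.1), snr-3 (34.8) and snr-2 (30.5). In replicate 1 the marked sites kept this order, with 201, 136, 49.5 and 47.2, and in replicate 2 they did as well, with 140, 78.3, 54.9 and 26.5. The neighbours rsp-1 and rsp-2 and rsp-6 had nearly the same signal in replicate 1, and stood apart in replicate 2. The log2 ratio of replicate 2 to replicate 1 was -0.52 at mog-4, -0.80 at snr-4, 0.15 at rsp-1 and rsp-2 and -0.83 at rsp-6. For the 913 combined peaks that both ranked lists matched within 100 bp, the median of this ratio was -0.33 with an SD of 0.56 across peaks. The 4 peaks were therefore within 1 SD of the median, with rsp-1 and rsp-2 on the side of replicate 2 and the other 3 on the side of replicate 1.

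**Figure D3:**
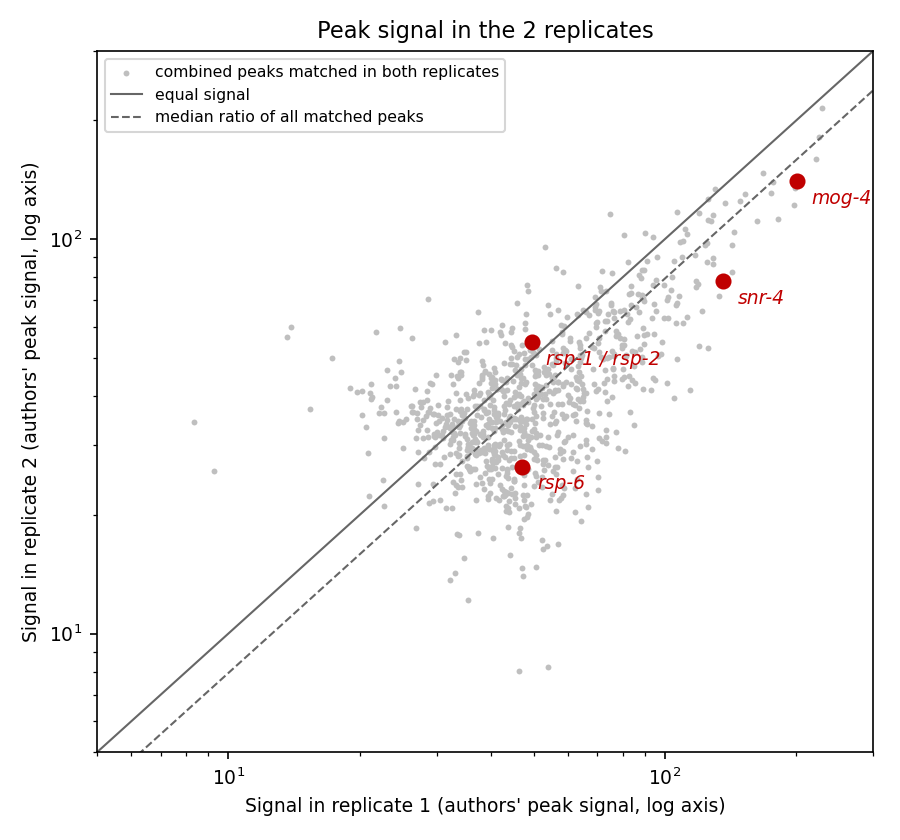
Signal in replicate 1 (x axis) and replicate 2 (y axis) of the 913 combined peaks matched in both, on log axes, with the peaks at the marked genes in red. The solid line is equal signal and the dashed line the median ratio, and mog-4 lies near the upper end of the cloud while rsp-6 lies below the dashed line.

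Peak width went with signal. Of the 1017 combined peaks 968 were 284 bp wide, each with its summit in the middle, and 49 were narrower, of which 41 were among the 50 peaks of highest signal. mog-4 (185 bp) and snr-4 (135 bp) were narrow, and the peaks at rsp-1 and rsp-2 and at rsp-6 had the common width, so their summits give the middle of the interval. In the combined list and both replicates the summits at mog-4 were within 2 bp of each other, those at snr-4 within 26 bp, those at rsp-6 within 43 bp and those at rsp-1 and rsp-2 within 50 bp. The distances to the 5′ end, between 113 and 344 bp, lay on either side of the median of 169 bp for all combined summits in a coding promoter window, whose quartiles stood at -278.5 and -51.5 bp.

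The genes differed in arrangement. The marked genes rsp-1 and rsp-2 were head-to-head with each other, that is, divergent with less than 1000 bp between the 5′ ends, and the marked genes rsp-6, snr-4 and mog-4 were not head-to-head with a coding gene. Of the 5 unmarked genes, rsp-3, snr-2, snr-3 and mog-5 were head-to-head and mog-1 was not. Over all coding genes 17.7% were head-to-head, as were 47.5% of the marked ones. Because 1 peak between such genes can mark both, the rule itself raises the second share. Both genes were marked in 118 of 1794 head-to-head pairs. Of 454 combined peaks in a coding promoter window, 122 lay in the windows of more than 1 gene.

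**Figure D4:**
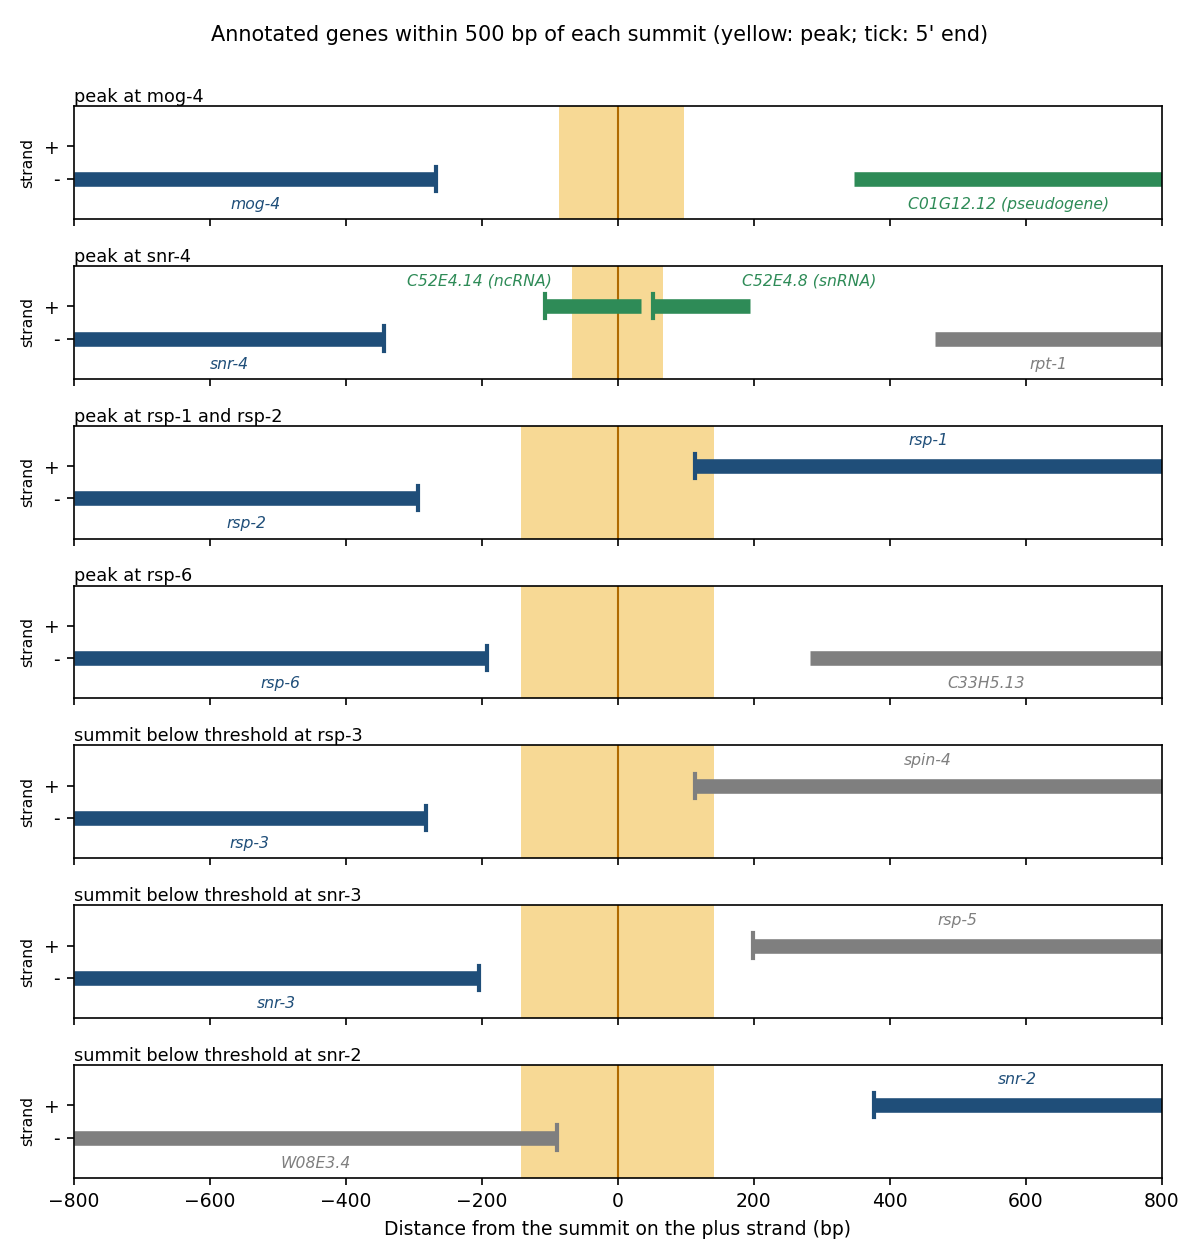
Annotated genes within 500 bp of the summit at each site, as distance from the summit in bp on the plus strand, with plus-strand genes above and minus-strand genes below in each panel. Yellow marks the peak, a tick the 5′ end, blue the 10 genes, grey other coding genes and green noncoding genes and pseudogenes, and the panel of snr-4 shows the summit 51 bp before a snRNA gene.

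No motif searched was found at every site, and TTCGAA was found at the most. Exact matches to 10 motifs were counted on both strands within 150 bp of each summit, beside all 1017 combined peaks and all coding promoters of the same length, from 250 bp before to 50 bp after the 5′ end. A match describes letters and not a bound site. TTCGAA, a form of the cell cycle genes homology region (CHR) that reads the same on both strands, occurred at mog-4, snr-4 and rsp-6 among the 4 marked sites and at all 3 unmarked sites, rsp-3, snr-3 and snr-2, against 19.7% of peaks and 18.2% of promoters. At mog-4 it lay 106 bp from the summit, outside the sequence shown. TTTGAA, the other CHR form, occurred at the rsp-1 and rsp-2 and the rsp-6 sites and at the same 3 unmarked sites (49.6% of peaks, 62.6% of promoters). TATAAA was at snr-4, at rsp-1 and rsp-2, at rsp-6 and at snr-2 (25.1% and 38%), CCAAT at snr-4 and snr-2 (41.5% and 45.7%), GAGAGA at snr-4 (30.4% and 21.8%) and CTGCGTC at rsp-6 (12% and 4.34%). Within 150 bp of these 7 summits there was no match to the E2F forms TTGGCGC (7.37% of peaks and 2.19% of promoters) and TTCCCGC (8.26% and 3.22%). Nor was there a match to the E-box CACGTG (6.29% and 5.84%) or to the SP1 type GGGCGG (12.4% and 7.87%). At such shares 7 sites would hold few matches or none, so nothing is read from their absence. The GC content of the windows was 38.9% at mog-4, 49.2% at snr-4, 43.9% at rsp-1 and rsp-2 and 36.5% at rsp-6, against a median of 40.9% over all combined peaks, so that snr-4 stood highest.

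The annotated 5′ ends of most of these genes followed an AG, the last 2 bases of the acceptor motif TTTCAG. Just before the 5′ end, 9 of the 10 genes had AG, against 27.6% of coding genes, and 5 had the full TTTCAG, against 12.3%: rsp-2, rsp-6, snr-3, snr-4 and mog-5. In rsp-3, the exception, a second annotated transcript starts 6 bp downstream, directly after TTTCAG. rsp-1 and mog-4 had AG alone at the end used here, and TTTCAG before another annotated end, 618 and 8319 bp downstream. Counted from that end of rsp-1, the summit stood at -731 bp, outside the window. The 30 bases from 20 before the 5′ end, on the strand of the gene, are shown for the marked genes, since the distances of the summits are counted from here, with the AG or TTTCAG before the 5′ end in capitals.
rsp-1 (chromosome II): tcgcctgcgtaggtgttcAGgttgatatgc
rsp-2 (chromosome II): tcattcttcacttaTTTCAGacctctaaac
rsp-6 (chromosome IV): aaattaatttgattTTTCAGtatggacgcc
snr-4 (chromosome V): gctaaccaatttaaTTTCAGggacttctat
mog-4 (chromosome II): gtaattatccaactttccAGataatgtccg

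Other splicing genes were looked up in a list of 106 genes that includes the 10. Of the 96 others, 7 (7.29%) were marked in the combined list, against 2.79% of coding genes. The list was chosen with earlier results known, so this is a description. The 7 were syf-2 (signal 140), a homologue of a component of the yeast spliceosome, smn-1 (125.2), the homologue of the human SMN protein that loads Sm rings onto snRNAs, rsr-1 (102), the homologue of the SR-related protein SRm160, smu-1 (93.5), a factor known for alternative splicing of unc-52, aly-2 (79.8), an RNA export adaptor of the ALY family, prp-40 (66.4), a homologue of a yeast U1 protein, and plrg-1 (64.1). In the ranked lists of both replicates all 7 had a summit within 100 bp, as did 913 of the 1017 combined peaks. The signals of the 7 were between 33.8 and 85.5 in replicate 1 and between 26.4 and 51.8 in replicate 2. The thresholded list of replicate 1 alone marked all of them but prp-40 (1.72% of coding genes marked). That of replicate 2 alone marked only syf-2, smn-1 and rsr-1 of them (1.34%). The peaks at syf-2, smn-1, rsr-1, aly-2 and prp-40 also lay in the window of another gene, K04G7.1, klp-16, sri-5, rpb-12 and clu-1 in that order. With the nearest coding 5′ end alone (2.2% of coding genes marked), smu-1, aly-2, prp-40 and plrg-1 stayed marked. The 3 of highest signal, syf-2, smn-1 and rsr-1, did not, as their summits lay nearer to the other gene. None of the 7 had a signal as high as snr-4 or mog-4.

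The other members of the 3 families are given by their values alone, since the marked genes were chosen from the same list. Of 8 SR protein genes 3 were marked. Their relatives rsp-4, rsp-5 and rsp-7 had summits with combined signals of 34.002, 34.8 and 25.7 and scores of 169, 234 and 77, and rsp-8 had none in the window. Of 7 Sm genes, all had a summit in the combined ranked list, and besides snr-4 their signals ran from 30.5 at snr-2 to 46.6 at snr-7. The highest score among these was 740 at snr-1, with a signal of 42.2. Of 6 mog genes, mog-3 had a signal of 36.8 and mog-1, mog-2, mog-5 and mog-7 had no summit in the window. None of 7 Sm-like genes, of 10 genes for branch point and U2 proteins and of 6 other helicase genes was marked, and 1 of 11 prp genes was. With 2.79% of all coding genes marked, groups of this size would hold few or none, so nothing is read from these counts.

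**Figure D5:**
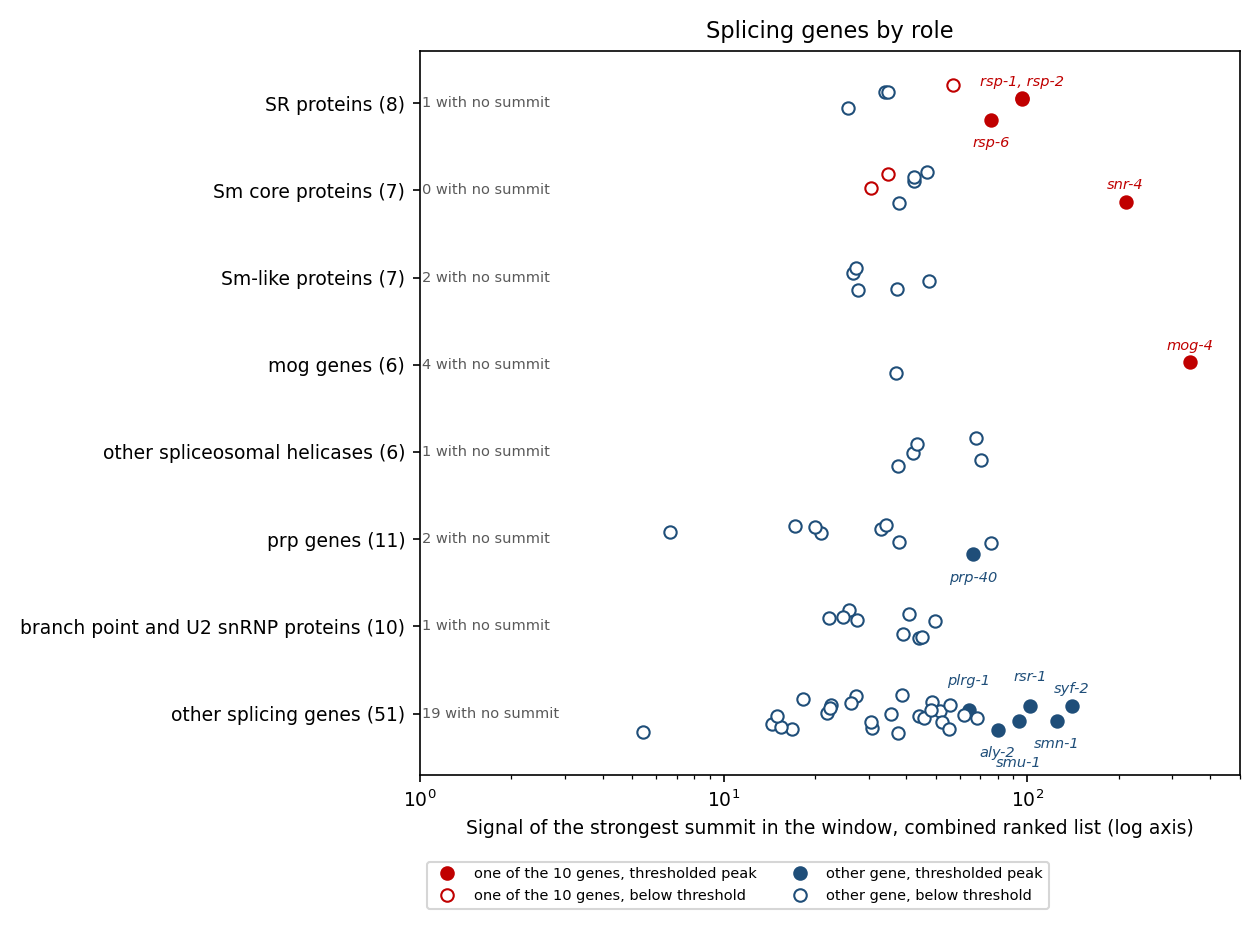
Signal of the strongest summit in the promoter window in the combined ranked list, on a log axis, for 106 splicing genes by role, with the number of genes in parentheses and the number without a summit at the left. Red are the 10 genes and blue the others, filled where the combined thresholded list had a summit in the window, and mog-4 (343) and snr-4 (211) lie at the right end.

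The marked promoters most like each site were sought by the distance of log2 signal over 3 lists, the combined list and both replicates, where 0 is an identical set of signals. Nearest to mog-4 were rpl-35, a ribosomal protein gene, and cdc-48.1, an AAA ATPase gene, both at 0.21. Nearest to snr-4 were the site shared by cct-8, a chaperonin subunit gene, and Y55F3AR.2 (0.17), and rps-1 (0.20). Nearest to rsp-1 and rsp-2 were cyc-1 (0.12) and the site shared by cec-5 and nol-10 (0.13), and nearest to rsp-6 the site shared by ran-5 and R12C12.6 (0.07) and nhr-217 (0.07).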

How the data were processed

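Whole young adult worms with tagged C17E4.6 were profiled in 2 biological replicates, sheared by sonication per the labels to fragments of 200 to 800 bp. The authors deposited 8 peak lists on ce11, the same assembly as WBcel235. Neither the aligner nor the peak caller is named in the sources used here. Each peak has a deposited score that follows its IDR, a signal and a −log10 q, all the authors' own values. In the ranked lists made from both replicates, peaks also carry a −log10 of the IDR. Read counts were not analysed here, and with depth unknown no interval is given. The 2 ranked lists made from both replicates also hold 16 columns without a sample name, which were left out.

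Summits were taken as start plus offset plus 1, genes from Ensembl release 115 and sequence from RefSeq WBcel235. Ensembl gives 2 snRNA genes 1 name, so the RefSeq name C52E4.8 is used. Python 3.11.15 with pandas 2.3.3 was used. The window search was tested on simulated data. The members, lists and motifs were chosen with earlier results of these data known, so no test was run. Of 114 listed splicing genes 8 symbols were not found in the annotation. Named genes were the 10 genes, genes sharing or nearest to their peaks, marked genes of the wider list and the 2 most similar marked sites. Genes named for unmarked summits were chosen after their values were seen. Alternatives were the conservative list, the 508 peaks of highest signal, a score of 540, each replicate alone, other windows, the nearest coding gene and peak overlap.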

Additional observations from a re-analysis of the deposited data

How the results depend on the processing

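Of the 5 genes marked in the combined list, 5 were marked with the conservative list, with ranked peaks at a score of 540 (an IDR of 0.05), with the wide window of 1000 bp upstream and 500 bp downstream and with any overlap of peak and window. The count was 4 with the 508 peaks of highest signal, where rsp-6 was lost, and 4 with the nearest coding gene alone, where rsp-2 was lost. The nearest-gene rule passed over noncoding genes. At snr-4 the summit lay 51 bp from the 5′ end of C52E4.8 and 108 bp from that of C52E4.14, against 344 bp from snr-4. With the narrow window of 250 bp upstream and 100 bp downstream the count was 2, rsp-1 and rsp-6. The summits of rsp-2, snr-4 and mog-4 lie farther upstream. With each replicate alone it was 4 or 5. Of the wider list 12 genes were marked, 22 with a score of 540 and 6 with the narrow window. The count was 8 with the nearest coding gene alone and 8 to 11 with each replicate alone. Over all coding genes the count was 558, and was 336 with the 508 peaks of highest signal and 862 with a score of 540. It was 335 with the narrow window, 439 with the nearest coding gene alone and 268 to 344 with each replicate alone. At the 5 marked genes no alternative turned the summit from upstream to downstream of the 5′ end. Other annotated 5′ ends lie downstream of those used and could not have turned it, so only the replicates could. Below the threshold this did not hold: at snr-2 the strongest summit stood at -376 bp in the combined ranked list and at 181 bp in replicate 1, and at snr-3 at -205 bp and, for the stronger of the replicate 2 summits, at 200 bp. No paired analysis was possible because there was 1 group. The lists hold no reads, so depth could not be weighed.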

Other observations

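Other lists marked further splicing genes. The conservative list marked prp-8, the central protein of the spliceosome, hel-1, an RNA helicase gene, and tcer-1, a homologue of a factor of transcription and splicing, in addition to the 12 of the combined list. The strongest summits in their windows in the combined ranked list had signals of 76.1, 70.4 and 68.4 and scores of 730, 578 and 616. The signal at prp-8 was thus as high as that at rsp-6 (75.8), which had a score of 1000. Within 100 bp of its summit prp-8 had a signal of 41.3 in the ranked list of replicate 1 and no summit in that of replicate 2. At rsp-6 the replicates had signals of 47.2 and 26.5. The thresholded list of replicate 2 alone marked snrp-200. The strongest summit in its window in the combined ranked list had a signal of 67.7 at a score of 56. Within 100 bp of that summit the signal in the ranked list of replicate 2 was 20.1. Whether the thresholded peak of replicate 2 lies at the same summit was not tested.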
